A study of Mus musculus with 64 samples.

Results

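The mRNA decay machinery was examined in mouse CD4 T cells as 48 listed genes of deadenylation, decapping, the exosome and nonsense-mediated decay (NMD), listed by symbol with earlier results of these data known. They match 49 of the 23134 rows of the deposited table, because the symbol Tob2 stands on 2 gene identifiers. All 49 rows passed the filter on low counts, as did 16140 genes in all. By role they fall into 13 deadenylation genes, 5 rows of the BTG/TOB family, 13 genes of decapping and decay from the 5′ end, 6 NMD genes and 12 genes of the exosome and its SKI cofactor.

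Cytoplasmic mRNA decay usually starts with shortening of the poly(A) tail by the CCR4-NOT and PAN2-PAN3 complexes. BTG and TOB proteins bind the deadenylases Cnot7 and Cnot8 of CCR4-NOT. The body of the transcript is then decapped and degraded from the 5′ end by Xrn1, or degraded from the 3′ end by the exosome, which the SKI complex feeds in the cytoplasm. NMD directs transcripts with premature stop codons, and some normal ones, into the same routes. Roquin proteins (Rc3h1, Rc3h2) and the endonuclease Regnase-1 (Zc3h12a) bind stem-loops in mRNAs of T cell activation, and are known to work with CCR4-NOT and with the NMD helicase Upf1 as partners.

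The cells were CD4 T cells from spleens of C57BL/6J mice, in 4 genotypes. TKO cells were Rc3h1/2 fl/fl; Zc3h12a fl/fl, DKO cells Rc3h1/2 fl/fl and KO cells Zc3h12a fl/fl. All 3 carried Cd4-Cre-ERt2, a recombinase made in Cd4-expressing cells and switched on with 4-OH-tamoxifen, and WT control cells carried Cd4-Cre-ERt2 without floxed genes. The labels do not say whether WT cells received tamoxifen, nor do they give ages. All cells had been activated through CD3 and CD28 under Th1 conditions and kept in medium with IL-2. They were then left untreated (0 h) or restimulated with anti-CD3/28 for 1, 2 or 4 h, with 4 libraries in each of 16 groups.

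Libraries held 5369849 to 11665883 reads (median 7720324), of which the 10 most abundant loci took 26.6 to 38.1%. The SD of a library's deviations from its group mean (log2, over 16140 genes) had a median of 0.38, and stood apart at 0.73 in WT 0 h library 3 and 0.62 in WT 2 h library 3. In WT 0 h library 4 the exosome and SKI genes lay low, with a median deviation of -0.44. No label ties a library to an animal or culture of its own, so the tests measure the spread between libraries, which may be technical. Of the targeted genes, Rc3h1 was lower at 4 h by -0.98 ± 0.10 in TKO cells and by -1.17 ± 0.10 in DKO cells on the log2 scale, while at 0 h the difference was -0.17 ± 0.10 (adjusted p = 0.192) in TKO cells and -0.32 ± 0.10 (adjusted p = 0.0374) in DKO cells. Rc3h2 was not lower at 4 h (0.53 ± 0.12 in TKO cells, called higher, and 0.22 ± 0.12 in DKO cells). Zc3h12a was higher than in WT cells at 0 h in TKO cells (0.59 ± 0.19, limma, adjusted p = 0.0109), though it is floxed in them. It was not called in KO cells (0.33 ± 0.19). In DKO cells, where it is not floxed, it was higher by 1.78 ± 0.19 at 0 h and 1.17 ± 0.19 at 4 h. Set against DKO cells, Zc3h12a in TKO cells was lower by -1.19 ± 0.19 at 0 h and -1.35 ± 0.19 at 4 h. Against WT cells, Zc3h12a was lower at 1 h by -0.92 ± 0.19 in TKO cells and -0.72 ± 0.19 in KO cells. At 4 h these differences from WT cells were -0.18 ± 0.19 and -0.16 ± 0.19. Which exons were floxed is not stated, and the counts cover whole genes, so they do not settle how complete each deletion was, and TKO, DKO and KO below name libraries by their labels. All 8 CD4 T cell markers were above 0 in every group. Both CD8 T cell markers together reached 26.8 to 128 in WT cells at 0 h, against 8157 to 10920 for the CD4 T list. At 4 h they reached 166 to 236 in TKO cells, 80.1 to 146 in DKO cells, 109 to 403 in KO cells and 38.5 to 137 in WT cells, so that TKO and WT cells did not overlap. The 6 B cell markers summed to 2736 to 4000 in TKO cells and 880 to 1833 in WT cells at 0 h, and to 510 to 695 in TKO cells and 104 to 204 in WT cells at 4 h. Without Ighm, which holds nearly all of that sum, the other B cell markers gave 16.5 to 48.8 in TKO cells and 17.8 to 43.3 in WT cells at 0 h. At 4 h those other markers gave 12.01 to 17.91 in TKO cells and 25.64 to 35.45 in WT cells, lower in TKO cells without overlap. The part of other cells in the results was not tested, and in bulk RNA fewer cells of a type and less RNA per cell cannot be told apart.

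Before restimulation, levels of the members spanned a wide range. On the RPKM scale, reads per kb of annotated exon scaled for library size (WT 0 h, mean ± SD, n = 4), the median of 48 members with a length was 8.54. Xrn2, the nuclear 5′-to-3′ exonuclease, was highest at 54.7 ± 4.29, with Lsm4, of the LSM ring that binds mRNA ends, next at 48.4 ± 8.99, within its spread. Cnot6 (37.2 ± 3.07) and Cnot2 (33.9 ± 2.27) followed. Exosc5 (1.64 ± 0.397) and Pan2 (2.33 ± 0.231) were lowest.

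Restimulation of WT cells moved 20, 33 and 27 of the 49 rows at 1, 2 and 4 h, and more of them up than down. Below, a normalised count is a read count set to a common library size, a fold change is on the log2(normalised count + 1) scale with its SE, and a gene is called at an adjusted p under 0.05 (limma, over 16140 genes). Because the choice of scaling shifts all genes together, each count is also given for calls made in the same direction under all 4 scalings tried. At 1 h, 18 of 49 rows rose and 2 fell, against 18.7% and 12.5% of all genes tested. Under all 4 scalings 11 rose and 0 fell, against 13.6% and 7.96% of all genes. At 2 h, 27 rose and 6 fell (background 26.5% and 25.5%), and 24 and 5 under all 4 scalings (21.2% and 24.3%). At 4 h, 19 rose and 8 fell (24.7% and 27.1%), and the same numbers did so under all 4 scalings (24.5% and 24.7%). The members' median change was 0.19, 0.44 and 0.20 at 1, 2 and 4 h, beside -0.10, -0.16 and 0.01 for all genes. Over the 4 scalings the median of all genes ran from -0.28 to 0.05 at 1 h, from -0.36 to -0.13 at 2 h and from 0.01 to 0.10 at 4 h. The 3 comparisons share the WT 0 h libraries. Marker sums also moved: in WT cells the CD4 T list lay at 5128 to 6084 at 4 h and at 8157 to 10920 at 0 h, and the 4 NK cell markers at 267 to 502 at 4 h and at 87.4 to 326 at 0 h, and their part in the members' changes was not tested. Leaving out WT 0 h library 3 gave 19 higher at 1 h, 29 at 2 h and 21 at 4 h, and leaving out library 4 gave 16, 25 and 18. Members lower at 2 h numbered 4 without WT 0 h library 3 and 7 without WT 2 h library 3, and leaving out WT 0 h library 3 or 4 left 1 lower at 1 h.

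**Figure D1:**
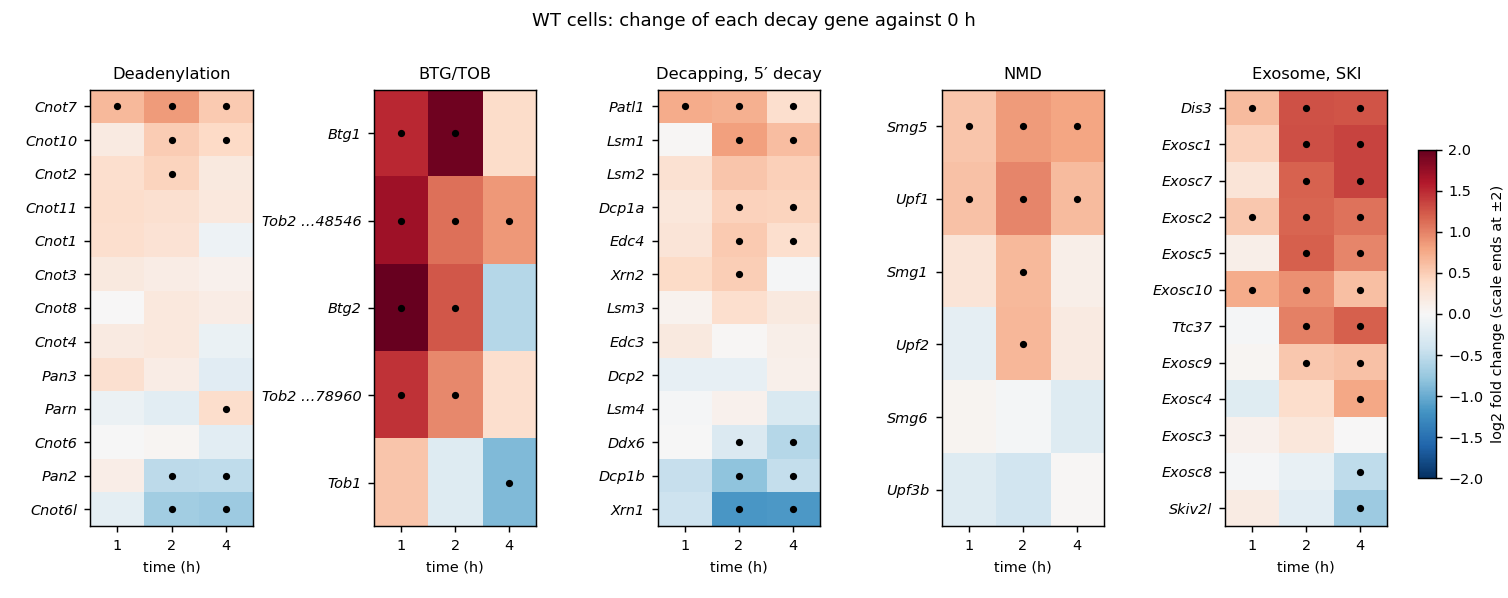
Log2 fold change of each decay gene in WT cells at 1, 2 and 4 h (columns) against 0 h, by role, from 4 libraries per group; red is higher and blue lower than at 0 h, the colour scale ends at ±2 and a black dot marks a call under all 4 scalings. Btg2, Tob2 and Btg1 are the darkest red at 1 h, most exosome genes are red at 2 and 4 h, and Xrn1 is the darkest blue of the decapping genes.

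Btg1, Btg2 and Tob2 rose within 1 h. At 4 h the Tob2 row ENSMUSG00000048546 was above and Tob1 below its 0 h level, and the second Tob2 row, Btg1 and Btg2 were not called. Btg1 and Btg2 are small antiproliferative proteins of quiescent lymphocytes, and Tob1 and Tob2 are their longer relatives that also bind poly(A)-binding protein. All 4 bind the deadenylases Cnot7 and Cnot8. Their promoters are shown because these genes include the largest changes of any member at 1 h, those of Btg2, Tob2 and Btg1. The letters are the 250 bases before the RefSeq start (GRCm38.p6), on the gene's strand, with the core of the cyclic AMP response element (CRE) in capitals where it occurs.
Btg2, chr1:134079156-134079405, minus strand: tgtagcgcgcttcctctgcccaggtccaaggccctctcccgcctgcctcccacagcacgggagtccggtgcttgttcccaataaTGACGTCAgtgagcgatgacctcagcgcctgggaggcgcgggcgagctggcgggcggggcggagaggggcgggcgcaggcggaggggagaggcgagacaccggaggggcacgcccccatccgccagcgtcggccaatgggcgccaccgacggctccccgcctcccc
Btg1, chr10:96616751-96617000, plus strand: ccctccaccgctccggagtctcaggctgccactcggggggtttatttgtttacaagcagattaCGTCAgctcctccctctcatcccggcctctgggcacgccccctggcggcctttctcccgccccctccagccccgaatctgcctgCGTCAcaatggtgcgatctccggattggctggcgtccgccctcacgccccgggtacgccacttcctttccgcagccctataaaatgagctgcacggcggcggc
Tob1, chr11:94211204-94211453, plus strand: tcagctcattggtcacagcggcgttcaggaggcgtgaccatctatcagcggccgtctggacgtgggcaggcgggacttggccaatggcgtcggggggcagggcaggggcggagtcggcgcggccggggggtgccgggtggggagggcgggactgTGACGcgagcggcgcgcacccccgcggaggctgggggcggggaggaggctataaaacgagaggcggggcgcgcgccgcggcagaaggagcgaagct
Tob2, chr15:81858327-81858576, minus strand: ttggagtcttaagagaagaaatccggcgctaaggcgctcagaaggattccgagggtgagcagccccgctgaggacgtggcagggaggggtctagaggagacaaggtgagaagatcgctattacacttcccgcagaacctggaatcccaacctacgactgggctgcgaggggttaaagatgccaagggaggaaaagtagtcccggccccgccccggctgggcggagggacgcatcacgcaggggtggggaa
The CRE core searched was TGACG on both strands, and 17.8% of 32851 promoter windows of this length held it. Btg2 held 2 overlapping copies on opposite strands, beginning 166 and 163 bases before the start, which together are a single palindrome, TGACGTCA. Btg1 held 2 separate copies, at 187 and 103 bases. Tob1 held 1 copy at 96 bases and Tob2 held none. The Tob2 window lies inside the gene as GENCODE places it (chr15:81848272-81858796), so it is not upstream of the start given there. None of the 4 windows held the cores searched for AP-1 (TGANTCA, in 6.75% of windows), EGR (GTGGGCG, 7.02%), NFAT (TGGAAA, 18.6%) or the E-box (CACGTG, 6.02%). Of the other roles, 5 of 11 deadenylation genes with a window held the CRE core, as did 2 of 9 decapping genes, 2 of 9 exosome and SKI genes and 1 of 6 NMD genes. A gene counted if any of its windows held the core, and some genes have several, so these counts are not comparable with the share of windows. These matches describe letters, not binding.

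Btg2 (GRCm38, chr1:134075170-134079120, minus strand) had 85.4, 84.6, 268 and 179 normalised counts in the 4 WT libraries at 0 h, and 1403, 804, 895 and 816 at 1 h. At 2 h its libraries held 266, 345, 368 and 325, and at 4 h 79.3, 88.6, 109 and 90.5. All libraries at 1 h lay above all at 0 h. Those at 2 h overlapped the 0 h group by a single library, and 3 of those at 4 h lay within its range and 1 below it. The change was 2.79 ± 0.29 at 1 h (adjusted p = 9.4e-12), 1.24 ± 0.29 at 2 h (adjusted p = 0.00022) and -0.58 ± 0.29 at 4 h (adjusted p = 0.09).

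Btg1 (chr10:96617006-96622809, plus strand) was likewise up at 1 and 2 h. Its normalised counts were 535, 568, 923 and 587 at 0 h, 2117, 1977, 1632 and 1617 after 1 h, 1988, 2041, 3291 and 2770 after 2 h and 734, 763, 811 and 988 after 4 h. The 1 h and 2 h libraries all lay above the 0 h ones, and the 4 h libraries overlapped them. The change was 1.52 ± 0.22 at 1 h (adjusted p = 1.3e-07), 1.95 ± 0.22 at 2 h (adjusted p = 5.7e-11) and 0.36 ± 0.22 at 4 h (adjusted p = 0.18).

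Tob2 (ENSMUSG00000048546) rose and remained above 0 h at 4 h, whereas Tob1 ended lower. Tob2 held 157, 132, 238 and 174 normalised counts at 0 h, 735, 593, 502 and 433 after 1 h, 352, 386, 440 and 314 after 2 h and 304, 291, 312 and 345 after 4 h. Every restimulated library lay above every 0 h library, and the change was 1.69 ± 0.17, 1.11 ± 0.17 and 0.86 ± 0.17 at 1, 2 and 4 h (adjusted p = 1.9e-12, 9.1e-08 and 1.3e-05). Tob1 held 75.2, 86.6, 92.7 and 162 normalised counts at 0 h, 141, 198, 134 and 122 after 1 h, 75.9, 97, 80.8 and 80.9 after 2 h and 57.4, 59.7, 57.7 and 42.1 after 4 h. All 4 h libraries of Tob1 lay below all 0 h libraries. The change was -0.88 ± 0.28 (adjusted p = 0.0056) at 4 h and 0.55 ± 0.28 (adjusted p = 0.12) at 1 h. The second row with the symbol Tob2 (ENSMUSG00000078960), with 14.7 to 22.9 normalised counts at 0 h, has no annotation in the GENCODE set used and rose by 1.45 ± 0.25 at 1 h. That row changed by 0.97 ± 0.25 at 2 h and by 0.33 ± 0.25 at 4 h (limma, adjusted p = 0.000903 and 0.303).

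**Figure D2:**
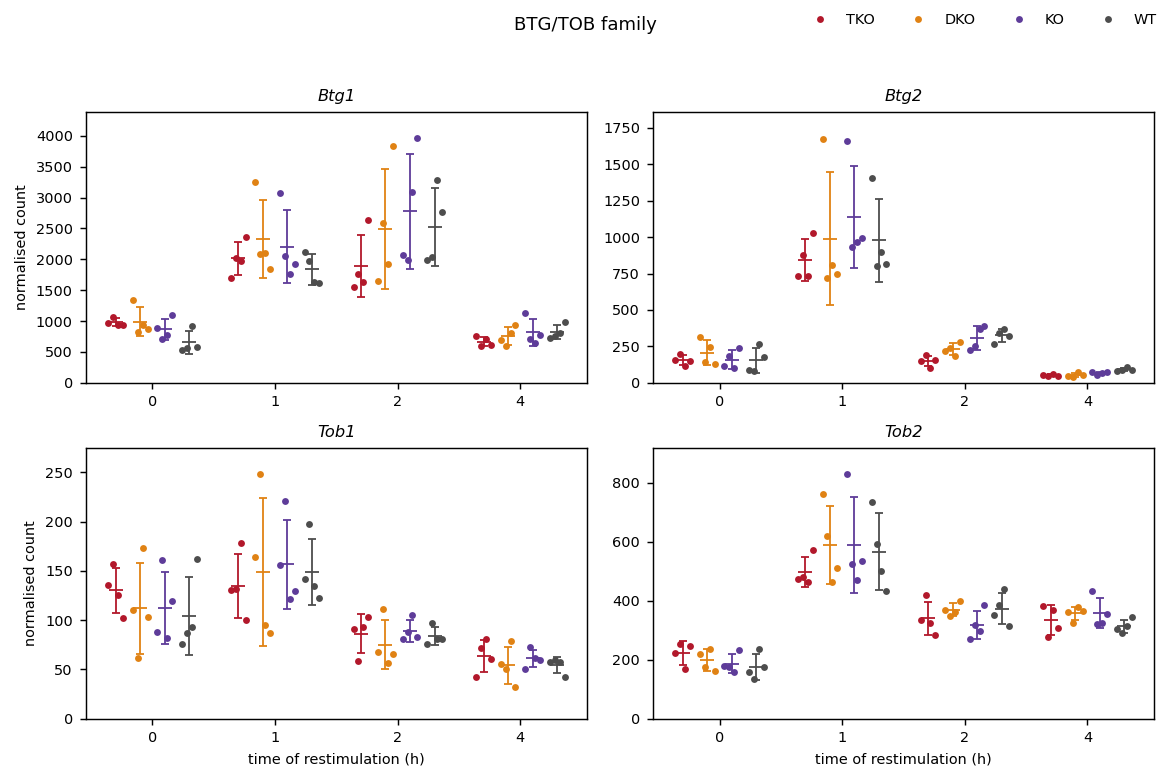
Normalised counts of Btg1, Btg2, Tob1 and Tob2 (ENSMUSG00000048546) in each library (points) with mean and SD (bars), at 0, 1, 2 and 4 h in TKO, DKO, KO and WT cells. Btg2 is highest at 1 h in all genotypes, up to 1403 in WT cells, and at 2 h its TKO libraries (103 to 191) lie below its WT libraries (266 to 368).

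Among the deadenylation genes, the deadenylase subunits went in different directions in WT cells. Cnot7, a CAF1-type deadenylase, rose at all 3 times, while Cnot6l, one of the CCR4-type deadenylases, and Pan2, the deadenylase of PAN2-PAN3, fell at 2 and 4 h. Of 13 deadenylation genes, 5 rose and 0 fell at 1 h; at 2 h the numbers were 5 and 3, and at 4 h 3 and 2. Under all 4 scalings they were 1 and 0, 3 and 2, and 3 and 2. Of all genes, 18.7%, 26.5% and 24.7% rose at these times, and 12.5%, 25.5% and 27.1% fell. Under all 4 scalings 13.6%, 21.2% and 24.5% of all genes rose, and 7.96%, 24.3% and 24.7% fell.

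Cnot7 (chr8:40492540-40515847, minus strand) had 348, 256, 378 and 353 normalised counts at 0 h, 541, 563, 519 and 461 after 1 h, 557, 546, 711 and 593 after 2 h and 454, 436, 497 and 513 after 4 h. Every restimulated library lay above every 0 h library. The change was 0.65 ± 0.12, 0.86 ± 0.12 and 0.52 ± 0.12 (adjusted p = 7.2e-06, 6.3e-09 and 0.00012). Cnot7 overlaps Zdhhc2 on the opposite strand, which had 47.5% as many reads, and reads of the shared exons cannot be assigned without a stated strand setting. Its paralog Cnot8 changed by 0.01 ± 0.12, 0.21 ± 0.12 and 0.15 ± 0.12 and was not called at any time.

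Cnot6l (chr5:96070333-96164171, minus strand) had 912, 900, 1411 and 1499 normalised counts at 0 h, 1102, 1069, 938 and 925 after 1 h, 674, 656, 780 and 745 after 2 h and 680, 689, 827 and 587 after 4 h. The 2 h and 4 h libraries all lay below the 0 h libraries, which themselves split into a pair near 900 and a pair above 1400. It fell by 0.69 ± 0.17 at 2 h (adjusted p = 0.00034) and by 0.73 ± 0.17 at 4 h (adjusted p = 0.000145). Its paralog Cnot6 was not called at any time. Pan2 fell by 0.52 ± 0.14 at 2 h (adjusted p = 0.0018) and by 0.51 ± 0.14 at 4 h (adjusted p = 0.002), and its partner Pan3 was called at 1 h alone (0.32 ± 0.13, adjusted p = 0.048), not under all 4 scalings. Parn, the poly(A)-specific ribonuclease, was called lower at 2 h (-0.21 ± 0.09, adjusted p = 0.0441), not under all 4 scalings, and rose by 0.35 ± 0.09 at 4 h (adjusted p = 0.00097). Of the non-catalytic CCR4-NOT subunits, Cnot10 rose by 0.51 ± 0.11 at 2 h and 0.39 ± 0.11 at 4 h, and Cnot2 rose by 0.44 ± 0.09 at 2 h. The scaffold Cnot1 was called at 1 h (0.34 ± 0.08) and 2 h (0.29 ± 0.08), and Cnot11 at 1 h (0.35 ± 0.11) and 2 h (0.31 ± 0.11), though not under all 4 scalings. Cnot3 and the ubiquitin ligase Cnot4 were not called.

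In the decapping and 5′ decay group, the exonuclease Xrn1 and the helicase Ddx6 fell while several decapping activators rose. Of these 13 genes, 3 rose and 2 fell at 1 h; at 2 h the numbers were 6 and 3, and at 4 h 4 and 3. Under all 4 scalings they were 1 and 0, 5 and 3, and 4 and 3. Beside them, 18.7%, 26.5% and 24.7% of all genes rose, and 12.5%, 25.5% and 27.1% fell. The shares under all 4 scalings were 13.6%, 21.2% and 24.5% higher, and 7.96%, 24.3% and 24.7% lower. Xrn1 (chr9:95954760-96057803, plus strand), which degrades decapped mRNA, had 615, 652, 771 and 764 normalised counts at 0 h, 533, 534, 490 and 541 after 1 h, 324, 305, 327 and 286 after 2 h and 298, 324, 381 and 264 after 4 h. Every library at 1, 2 and 4 h lay below every 0 h library. The change was -0.41 ± 0.15, -1.17 ± 0.15 and -1.15 ± 0.15 (adjusted p = 0.028, 1.3e-09 and 1.8e-09), of which the 1 h call did not hold under all 4 scalings. Ddx6, a helicase that links CCR4-NOT with decapping, fell by 0.29 ± 0.10 at 2 h (adjusted p = 0.018) and by 0.57 ± 0.10 at 4 h (adjusted p = 4.7e-06).

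The paralogous decapping cofactors Dcp1a and Dcp1b moved oppositely. Dcp1a held 449, 464, 420 and 425 normalised counts at 0 h, 511, 534, 485 and 525 after 1 h, 622, 612, 594 and 589 after 2 h and 532, 598, 700 and 576 after 4 h. Dcp1b held 165, 187, 203 and 214 at 0 h, 144, 137, 132 and 144 after 1 h, 126, 105, 102 and 105 after 2 h and 136, 137, 169 and 112 after 4 h. Each restimulated library of Dcp1a lay above its 0 h libraries, and each Dcp1b library at 1 and 2 h lay below them, with 1 library at 4 h inside the 0 h range. At 2 h Dcp1a rose by 0.46 ± 0.08 (adjusted p = 2.8e-06) and Dcp1b fell by 0.80 ± 0.14 (adjusted p = 2.6e-06). The catalytic subunit Dcp2 was not called in WT cells. Patl1, a scaffold of decapping, had 362, 388, 433 and 389 normalised counts at 0 h, 735, 648, 637 and 606 after 1 h, 639, 600, 712 and 635 after 2 h and 484, 489, 517 and 491 after 4 h. None of its restimulated libraries overlapped the 0 h group, and it rose by 0.74 ± 0.08, 0.72 ± 0.08 and 0.34 ± 0.08 (adjusted p = 8.4e-12, 6.7e-12 and 0.00017). The decapping enhancer Edc4 rose by 0.52 ± 0.11 at 2 h and 0.33 ± 0.11 at 4 h, and Lsm1, the cytoplasm-specific subunit of the LSM ring, by 0.81 ± 0.15 and 0.61 ± 0.15. Lsm2 changed by 0.56 ± 0.21 at 2 h, a call not made under all 4 scalings, and Lsm3, Lsm4 and Edc3 were not called. Xrn2 rose by 0.50 ± 0.09 at 2 h (adjusted p = 2.5e-06) and changed by -0.03 ± 0.09 at 4 h (adjusted p = 0.83).

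Of 6 NMD genes, 3, 4 and 2 rose at 1, 2 and 4 h and 0 fell at any of these times. Under all 4 scalings 2, 4 and 2 rose. The shares of all genes that rose were 18.7%, 26.5% and 24.7%, and those that fell 12.5%, 25.5% and 27.1%. Upf1 (chr8:70331525-70353278, minus strand), the RNA helicase at the centre of the pathway, had 577, 535, 574 and 384 normalised counts at 0 h, 831, 644, 811 and 788 after 1 h, 1078, 974, 1120 and 856 after 2 h and 805, 757, 780 and 833 after 4 h. Each restimulated library lay above each 0 h library. It rose by 0.58 ± 0.11, 0.97 ± 0.11 and 0.63 ± 0.11 (adjusted p = 1.7e-05, 2.6e-11 and 1.2e-06). Smg5, an adaptor that binds phosphorylated Upf1, held 416, 326, 417 and 240 at 0 h, 564, 410, 558 and 495 after 1 h, 637, 643, 691 and 521 after 2 h and 568, 612, 578 and 592 after 4 h. One library at 1 h lay within the 0 h range and those at 2 and 4 h lay above it. It rose by 0.56 ± 0.16, 0.86 ± 0.16 and 0.78 ± 0.16 (adjusted p = 0.0055, 9.0e-06 and 4.15e-05). Upf2, the bridge between Upf1 and Upf3b, rose by 0.67 ± 0.09 at 2 h, and Smg1, the kinase of Upf1, by 0.65 ± 0.10 at 2 h. Neither was called at 4 h. The endonuclease Smg6 and the exon-junction factor Upf3b were not called at any time.

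Most exosome and SKI genes rose late. Of 12, 3 rose at 1 h, 8 at 2 h and 9 at 4 h, and 2 fell at 4 h, each of these under all 4 scalings. Under all 4 scalings 13.6%, 21.2% and 24.5% of all genes rose at these times, and 24.7% fell at 4 h. The median change of the exosome and SKI genes was 0.14, 0.96 and 0.88 at 1, 2 and 4 h. Exosc10 (chr4:148558429-148582401, plus strand), the nuclear exosome's RNase, was the largest change at 1 h. Its normalised counts were 470, 436, 552 and 337 at 0 h, 798, 642, 749 and 793 after 1 h, 814, 778, 987 and 772 after 2 h and 664, 643, 659 and 710 after 4 h. None of its restimulated libraries reached down to the 0 h range, and the change was 0.75 ± 0.12, 0.91 ± 0.12 and 0.60 ± 0.12 (adjusted p = 4.2e-07, 9.8e-10 and 1.3e-05). Exosc1 (chr19:41922292-41933423, minus strand), an RNA-binding cap subunit, was the largest at 2 and 4 h. Its normalised counts were 159, 157, 144 and 71 at 0 h, 181, 169, 164 and 188 after 1 h, 268, 324, 376 and 284 after 2 h and 319, 313, 321 and 346 after 4 h. The library with 71 is WT 0 h library 4, and all libraries at 1, 2 and 4 h lay above the other three as well. The change was 0.47 ± 0.19 at 1 h (adjusted p = 0.058), 1.29 ± 0.19 at 2 h (adjusted p = 7.45e-08) and 1.36 ± 0.19 at 4 h (adjusted p = 2.2e-08).

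Exosc2, another cap subunit, rose by 0.54 ± 0.14, 1.16 ± 0.14 and 1.08 ± 0.14, and the ring subunits Exosc7 and Exosc5 rose by 1.18 ± 0.14 and 1.20 ± 0.15 at 2 h and by 1.34 ± 0.14 and 0.98 ± 0.15 at 4 h. Dis3, the catalytic subunit, rose by 0.64 ± 0.14, 1.27 ± 0.14 and 1.26 ± 0.14, and it overlaps Pibf1, which had 55.2% as many reads. Exosc9 rose by 0.54 ± 0.15 at 2 h and 0.59 ± 0.15 at 4 h, but its opposite-strand neighbour Ccna2 had 366% as many reads. Exosc4 rose by 0.77 ± 0.29 at 4 h (adjusted p = 0.019), beside Oplah with 18.3% as many reads. Exosc8 (neighbour Supt20, 62.6% as many reads) went the other way. It held 493, 471, 507 and 460 normalised counts at 0 h, 448, 472, 482 and 496 after 1 h, 395, 499, 486 and 371 after 2 h and 332, 389, 346 and 296 after 4 h, and fell by 0.51 ± 0.10 at 4 h (adjusted p = 3.2e-05). Only the 4 h libraries lay wholly below the 0 h range. Exosc3, the third cap subunit, changed by 0.00 ± 0.13 at 4 h (adjusted p = 0.99).

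Both SKI partners moved apart by 4 h. Ttc37 (chr13:76098734-76190316, plus strand), the scaffold, held 312, 323, 321 and 284 normalised counts at 0 h, 285, 253, 348 and 343 after 1 h, 633, 565, 741 and 559 after 2 h and 664, 729, 724 and 726 after 4 h. Skiv2l (chr17:34839228-34850210, minus strand), the helicase, held 359, 316, 448 and 298 at 0 h, 430, 330, 421 and 401 after 1 h, 339, 327, 327 and 234 after 2 h and 226, 224, 185 and 212 after 4 h. At 4 h every Ttc37 library was above, and every Skiv2l library below, its 0 h range. Ttc37 rose by 1.00 ± 0.10 at 2 h (adjusted p = 1.35e-12) and by 1.20 ± 0.10 at 4 h (adjusted p = 2.5e-15). Skiv2l changed by -0.21 ± 0.12 at 2 h (adjusted p = 0.15) and fell by 0.73 ± 0.12 at 4 h (adjusted p = 6.3e-07).

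**Figure D3:**
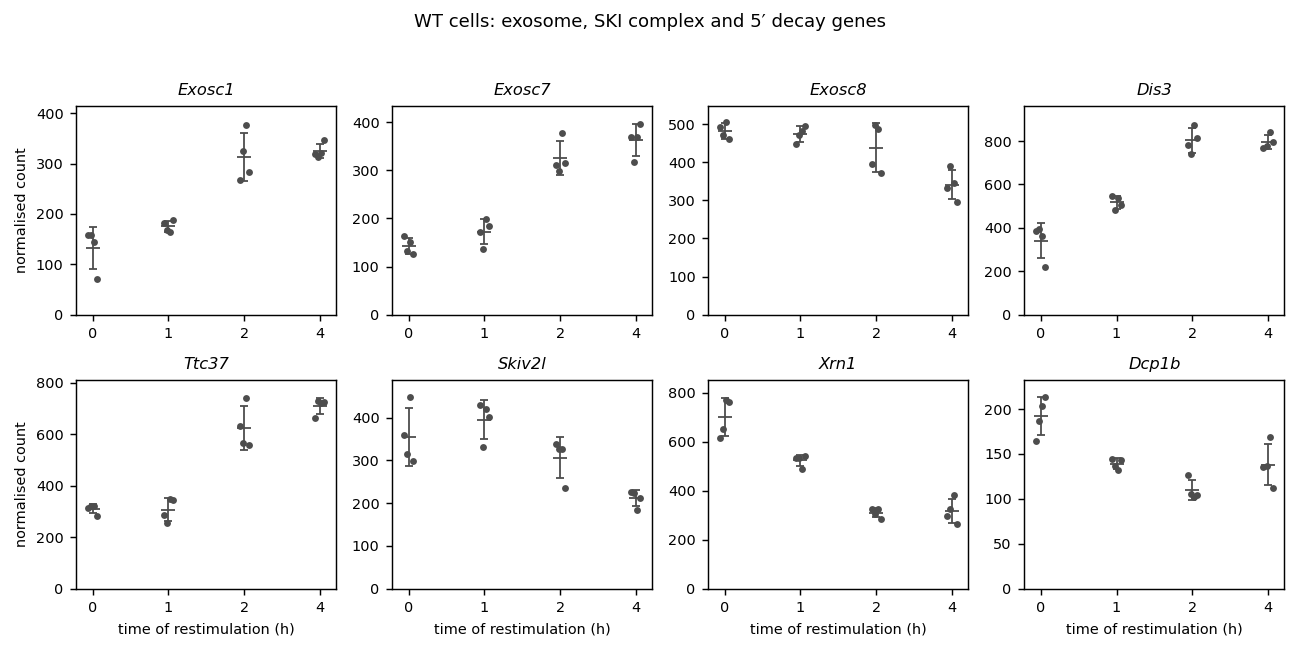
Normalised counts of exosome (Exosc1, Exosc7, Exosc8, Dis3), SKI (Ttc37, Skiv2l) and 5′ decay (Xrn1, Dcp1b) genes in each WT library (points) with mean and SD (bars) at 0, 1, 2 and 4 h. Exosc1, Exosc7, Dis3 and Ttc37 step up at 2 h, Xrn1 steps down, and Skiv2l and Exosc8 are lower at 4 h.

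The wider pathway, taken from lists made with earlier results of these data known, also moved both ways in WT cells. Of 42 further subunits and enzymes, 18 rose and 2 fell after 1 h, 23 and 9 after 2 h and 23 and 9 after 4 h, with a median change of 0.25, 0.49 and 0.35. The shares of all genes that rose and fell were 18.7% and 12.5%, 26.5% and 25.5%, and 24.7% and 27.1%. The numbers under all 4 scalings were 11 and 0, 17 and 9, and 23 and 8. The symbol Mpp6, listed for the exosome cofactor, was left out because the table annotates it as a membrane protein of the MAGUK family; with it the list has 43 genes and 1 more that rose at each time. The uridylyltransferase Zcchc6 rose by 1.89 ± 0.14 at 1 h and the translation release factor Etf1, which acts in NMD, by 1.36 ± 0.10. Ccrn4l, which encodes nocturnin, rose by 2.73 ± 0.19 at 2 h and Lsm7, of the LSM ring, by 2.03 ± 0.26. At 4 h the decapping coactivators Pnrc1 and Pnrc2 fell by 1.93 ± 0.19 and by 1.47 ± 0.25. Of 41 RNA-binding proteins and adaptors that recruit decay enzymes, 24 rose and 1 fell after 1 h, 25 and 8 after 2 h and 23 and 10 after 4 h, beside the same shares of all genes. Those under all 4 scalings were 17 and 0, 19 and 8, and 22 and 8. Zc3h12a itself rose by 3.44 ± 0.19 at 1 h and the AU-rich element binder Zfp36l1 by 3.32 ± 0.15, while the miRNA effector Tnrc6b fell by 1.87 ± 0.16 at 2 h and by 2.07 ± 0.16 at 4 h.

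Knockout cells were then set against WT cells at the same time. Members were called in TKO and DKO cells at all 4 times and in KO cells at 4 h. In TKO cells 12, 14, 9 and 14 of 49 rows were called at 0, 1, 2 and 4 h, where 37.5%, 31.6%, 36.7% and 43.9% of all genes were. Under all 4 scalings 4, 7, 5 and 4 were called, beside 28.8%, 24.3%, 30.7% and 27.2% of all genes. In DKO cells, 1, 1, 1 and 3 rows were called (7.65%, 8.23%, 9.47% and 5.37% of all genes), of which 0, 0, 0 and 1 under all 4 scalings (5.13%, 6.66%, 5.63% and 2.7%). Without WT 0 h library 4 the DKO count at 0 h was 7. In KO cells none was called at 0, 1 or 2 h (1.32%, 2.17% and 5.94% of all genes) by limma on log2 values or by limma voom, with 3, 2 and 2 rows at an unadjusted p under 0.05. The share of all genes at that unadjusted p is not given here, so these 3 counts are not read as changes. Under the deposited scaling 12 rows were called in KO cells and 21 in DKO cells at 0 h. The share of all genes called under that scaling alone is not given here. At 0 h the median of all genes ran over the 4 scalings from -0.07 to 0.22 in KO cells. In DKO cells it ran from -0.09 to 0.23. In KO cells at 4 h 14 rows were called (33.4%), of which 1 under all 4 scalings (14.8%). The median of all genes at 4 h was 0.22 for KO and 0.20 for TKO cells under the scaling used and -0.06 and -0.08 under the lowest, so only calls under all 4 scalings are described as changes. The 3 genotypes share the WT libraries of each time. At 4 h the 4 myeloid markers found in the table, with Lyz2 at 0 in both groups, summed to 431 to 523 in TKO cells and 161 to 213 in WT cells, and the 4 NK cell markers, with Ncr1 at 0 in TKO cells, to 77.6 to 158 in TKO cells and 267 to 502 in WT cells, and their part was not tested.

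**Figure D4:**
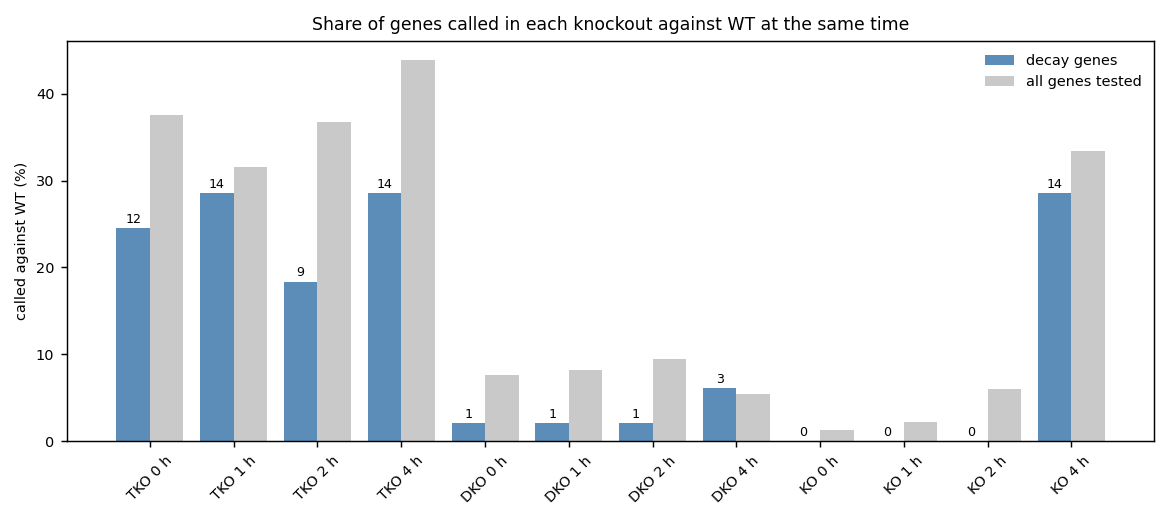
Percentage of the 49 decay gene rows (blue, number called above the bar) and of all 16140 genes tested (grey) called against WT cells at the same time, for TKO, DKO and KO cells at 0, 1, 2 and 4 h. The blue bar is below the grey one in every comparison but DKO at 4 h.

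The calls that did not hold under all 4 scalings were all higher in TKO and KO cells. In TKO cells at 0 h they were Btg1, Cnot2, Exosc3, Cnot7, Edc4, Ddx6, Upf2 and Dcp1a, from 0.62 down to 0.20. In TKO cells at 1 h they were Exosc3, Lsm1, Ddx6, Dcp2, Edc3, Upf2 and Parn, from 0.41 down to 0.23, and at 2 h Xrn1, Parn, Exosc3 and Ddx6, from 0.44 down to 0.26. At 4 h they were the second Tob2 row, Xrn1, Exosc5, Cnot10, Cnot3, Cnot8, Parn, Exosc8, Edc3 and Patl1, from 0.64 down to 0.20. The 13 in KO cells at 4 h were Exosc3, Exosc5, Skiv2l, Cnot10, Exosc8, Upf1, Xrn2, Cnot8, Edc4, Cnot2, Patl1, Edc3 and Dcp1a, from 0.46 down to 0.22. In DKO cells such calls were made for Xrn2 at 0 h, Edc3 at 1 h (0.34 ± 0.10) and 2 h (0.34 ± 0.10), and Exosc3 and Parn at 4 h.

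Cnot6l was the one member called under all 4 scalings in all 3 knockouts, at 4 h. Its normalised counts at 4 h were 1036, 1475, 1390 and 1515 in TKO cells, 1097, 1211, 1557 and 815 in DKO cells, 867, 1421, 1071 and 1545 in KO cells, and 680, 689, 827 and 587 in WT cells. All TKO and KO libraries lay above all WT libraries, and 1 DKO library lay within the WT range. The change was 0.95 ± 0.17 in TKO cells (adjusted p = 8.2e-06), 0.72 ± 0.17 in DKO cells (adjusted p = 0.0037) and 0.79 ± 0.17 in KO cells (adjusted p = 0.00047). Without DKO 4 h library 3 the DKO call was lost (adjusted p = 0.055), and with only the KO and WT groups in the fit the KO call was lost (adjusted p = 0.053). The TKO call held in all 15 alternatives. Earlier, at 2 h, Cnot6l held 991, 920, 1222 and 1114 in TKO cells, against 674, 656, 780 and 745 in WT cells, without overlap (0.57 ± 0.17, adjusted p = 0.0054). At 0 h all genotypes overlapped, at 1302 ± 166 in TKO, 1185 ± 255 in DKO, 1119 ± 200 in KO and 1180 ± 319 in WT cells (SD, n = 4). The fall of Cnot6l seen in WT cells by 4 h had no counterpart in the mean of TKO cells, which was 1302 at 0 h and 1354 at 4 h. In DKO and KO cells too, the 4 h libraries lay on both sides of the 0 h means of 1185 and 1119. The difference in the change from 0 to 4 h was 0.78 ± 0.23 for TKO minus WT (adjusted p = 0.029), 0.70 ± 0.23 for DKO minus WT (adjusted p = 0.16) and 0.84 ± 0.23 for KO minus WT (adjusted p = 0.04), and neither called value was called under all 4 scalings.

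Btg2 was lower in TKO cells late in restimulation. At 2 h it held 153, 191, 103 and 155 normalised counts in TKO cells, 222, 241, 184 and 283 in DKO cells, 224, 251, 367 and 391 in KO cells, and 266, 345, 368 and 325 in WT cells. At 4 h it held 53.6, 43.6, 61.8 and 48.3 in TKO cells, 48.3, 39.5, 75.2 and 56.3 in DKO cells, 74.9, 55.7, 65.8 and 76.2 in KO cells, and 79.3, 88.6, 109 and 90.5 in WT cells. TKO and WT libraries did not overlap at either time. At 4 h all DKO and KO libraries lay below all WT libraries as well, though Btg2 was not called in KO cells at 2 or 4 h. The change in TKO cells was -1.13 ± 0.29 at 2 h (adjusted p = 0.0015) and -0.82 ± 0.29 at 4 h (adjusted p = 0.018). The 4 h call was lost without TKO 4 h library 2 or WT 4 h library 3, and with limma voom. In DKO cells the change was -0.49 ± 0.29 at 2 h and -0.76 ± 0.29 at 4 h (adjusted p = 0.29 and 0.11). At 1 h TKO cells, with 731, 879, 735 and 1032, overlapped WT cells (-0.19 ± 0.29, adjusted p = 0.65). Btg1 in TKO cells at 0 h had 972, 1071, 944 and 933 normalised counts, against 535, 568, 923 and 587 in WT cells, without overlap (0.62 ± 0.22, adjusted p = 0.023), not called under all 4 scalings.

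The NMD endonuclease Smg6 (chr11:74925823-75164448, plus strand) was lower in TKO cells. At 0 h it held 670, 774, 509 and 534 normalised counts in TKO cells, against 757, 706, 1005 and 1013 in WT cells, and 1 TKO library lay within the WT range. At 4 h it held 544, 523, 532 and 566 in TKO cells, 659, 686, 578 and 740 in DKO cells, 765, 760, 614 and 862 in KO cells, and 735, 665, 825 and 672 in WT cells. At 4 h the TKO libraries lay below those of every other genotype. The change against WT cells was -0.49 ± 0.13 at 0 h, -0.36 ± 0.13 at 1 h and -0.41 ± 0.13 at 4 h (adjusted p = 0.0023, 0.027 and 0.0076), and -0.28 ± 0.13 at 2 h (adjusted p = 0.078). The 1 h call was lost without TKO 1 h library 4 or WT 1 h library 1 or 4, with no filter and with only the groups compared, and the 4 h call was lost with no filter. Against KO cells at 4 h Smg6 was lower by -0.46 ± 0.13 (adjusted p = 0.035), and that call was lost in 8 of 15 alternatives, 7 of which left out a single library. Smg6 shares exon bases with Srr on the opposite strand, which had 5.61% as many reads.

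Dcp1b and Xrn2 were lower in TKO cells early on. Dcp1b held 137, 128, 127 and 115 normalised counts in TKO cells, 209, 148, 130 and 181 in DKO cells, 160, 153, 159 and 170 in KO cells, and 165, 187, 203 and 214 in WT cells at 0 h. The TKO libraries did not overlap the WT ones, and the change was -0.59 ± 0.14 (adjusted p = 0.00086). At 1 h it was -0.40 ± 0.14 (adjusted p = 0.025), which was lost in 6 of 15 alternatives, among them those without TKO 1 h library 1, 2 or 3 or WT 1 h library 4. Xrn2 held 1173, 1266, 1258 and 1144 normalised counts in TKO cells, 1143, 1131, 1157 and 1175 in DKO cells, 1350, 1436, 1138 and 1262 in KO cells, and 1283, 1447, 1678 and 1556 in WT cells at 0 h. Neither the TKO nor the DKO libraries overlapped the WT ones. Xrn2 changed by -0.30 ± 0.09, -0.34 ± 0.09 and -0.24 ± 0.09 in TKO cells at 0, 1 and 2 h (adjusted p = 0.0063, 0.0026 and 0.024), and by -0.37 ± 0.09 in DKO cells at 0 h (adjusted p = 0.0042), the DKO call not being made under all 4 scalings. The 2 h call of Xrn2 was lost in 7 of 15 alternatives, including those without TKO 2 h library 1, 2 or 3 or WT 2 h library 3 or 4.

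**Figure D5:**
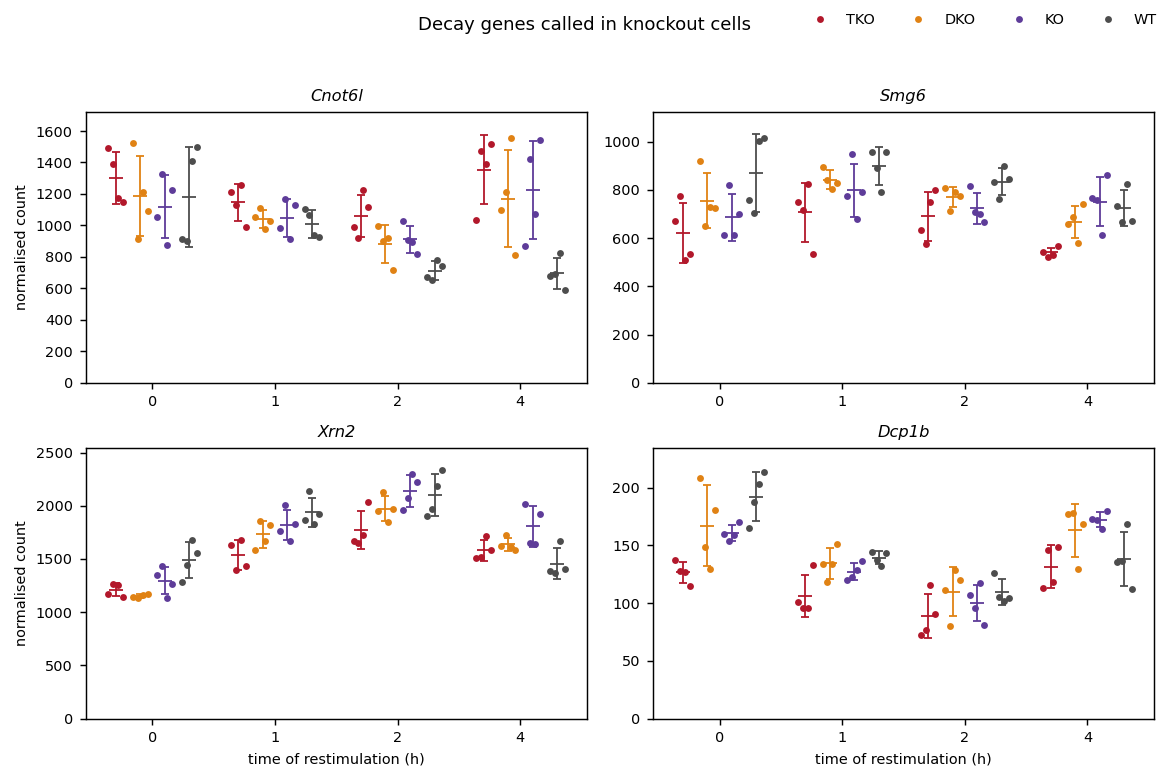
Normalised counts of Cnot6l, Smg6, Xrn2 and Dcp1b in each library (points) with mean and SD (bars) at 0, 1, 2 and 4 h in TKO, DKO, KO and WT cells. At 4 h Cnot6l is higher in the knockouts (815 to 1557) than in WT cells (587 to 827, with 1 DKO library inside that range), and Smg6 is lowest in TKO cells (523 to 566).

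Other members called in TKO cells under all 4 scalings were each called in that way at 1 or 2 of the times. Exosc10 was lower at 1 h, with 568, 553, 521 and 707 normalised counts in TKO cells and 798, 642, 749 and 793 in WT cells (-0.35 ± 0.12, adjusted p = 0.018), and at 2 h (-0.29 ± 0.12, adjusted p = 0.044). The groups overlapped at 1 h by a single TKO library. The 1 h call was lost without TKO 1 h library 2 or 3 or WT 1 h library 4, and the 2 h call without TKO 2 h library 1, 3 or 4 or WT 2 h library 1 or 3. At 1 h Upf1 (-0.27 ± 0.11, adjusted p = 0.048), Patl1 (-0.19 ± 0.08, adjusted p = 0.048) and Pan2 (-0.36 ± 0.14, adjusted p = 0.0499) were also lower, close to the threshold, and these calls were lost in 9, 9 and 8 of 15 alternatives, most of them leaving out a single library. Exosc3 was higher in TKO cells at 4 h, with 355, 329, 288 and 314 normalised counts, against 268, 265, 250 and 242 in DKO cells, 314, 259, 229 and 241 in KO cells and 203, 157, 188 and 208 in WT cells. No knockout library overlapped the WT ones, and the TKO change was 0.77 ± 0.13 (adjusted p = 9.35e-06), while the DKO (0.44 ± 0.13) and KO (0.46 ± 0.13) changes were called under the main scaling and not under all 4. Exosc3 overlaps Dcaf10 on the opposite strand, which had 81.9% as many reads. Cnot3, a scaffold subunit of the NOT module that overlaps Leng1 (11.5% as many reads), was higher at 0 h, with 666, 643, 690 and 484 normalised counts in TKO cells and 431, 476, 406 and 403 in WT cells (0.52 ± 0.11, adjusted p = 0.00024). Edc3, an activator of Dcp2, was higher at 2 h, with 440, 378, 451 and 425 in TKO cells and 351, 294, 335 and 289 in WT cells (0.42 ± 0.10, adjusted p = 0.00115), beside Clk3 with 130% as many reads. In both, no TKO library lay within the WT range.

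TKO cells were compared with the other knockouts at 0 and 4 h. Against DKO cells 1 of 49 rows was called at 0 h and 1 at 4 h (14.8% and 12.4% of all genes), Ttc37 (0.33 ± 0.10, adjusted p = 0.021) and Dcp2 (0.34 ± 0.11, adjusted p = 0.034), neither under all 4 scalings. Ttc37 held 353, 292, 322 and 447 normalised counts in TKO cells and 263, 279, 262 and 306 in DKO cells at 0 h, with overlap. Dcp2 held 690, 610, 564 and 581 in TKO cells and 511, 471, 478 and 465 in DKO cells at 4 h, without overlap. Against KO cells 5 rows were called at 0 h and 1 at 4 h (20.4% and 2.61% of all genes). Lsm2 at 0 h, with 265, 216, 397 and 307 normalised counts in TKO cells and 189, 131, 206 and 143 in KO cells, did not overlap and was called under all 4 scalings (0.81 ± 0.21, adjusted p = 0.0058). The other 4 at 0 h, Exosc3 (0.36), Cnot2 (0.34), Cnot3 (0.33) and Parn (0.28), were higher in TKO cells and not called under all 4 scalings. The one at 4 h was Smg6, given above.

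The differences in the change from 0 to 4 h were called for 2 rows in TKO minus WT (6.63% of all genes), 1 in DKO minus WT (0.824%) and 3 in KO minus WT (2.19%), none under all 4 scalings. Without WT 0 h library 3 the KO count was 0, and without library 4 it was 7. Xrn2 was called in all 3, at 0.42 ± 0.12, 0.54 ± 0.12 and 0.51 ± 0.12, but under the other scalings its value came down to 0.10, 0.16 and -0.03. Non-additivity, the TKO effect minus the sum of the DKO and KO effects, was called for 0 rows at 0 h and 0 at 4 h (0.731% and 0.167% of all genes) by limma on log2 values and by limma voom, with 7 and 5 rows at an unadjusted p under 0.05. The share of all genes at that unadjusted p is not given here. Over the 4 scalings the median of all genes ran from -0.42 to 0.05 at 0 h and from -0.08 to 0.04 at 4 h. The 5 rows Cnot4, Cnot6, Lsm3, Lsm4 and Upf3b were called in none of the 24 comparisons.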

How the data were processed

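RNA-seq of 64 libraries was analysed from 1 deposited table of 23134 genes, in which each of 16 groups holds a list of 4 values per gene. The authors deposited these values as counts, per the file headers; the values are not whole numbers and show a different step in each library, so they are treated here as normalised counts, scaled by 1 factor per library. How reads were aligned, counted and scaled, and whether strand was used, is not given in the sources used here. The build is GRCm38, per the submitters' processing notes. In each library 100% of low values were whole multiples of 1 step within 0.1 read, so whole reads were recovered from them. The plan named limma on log values unless the table held raw counts, and limma was used.

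Values were rescaled with TMM factors over the 16140 genes that reached about 10 reads at median depth in at least 4 libraries. limma 3.58.1 (R 4.3.3) was fitted to log2(normalised count + 1) with a mean for each of the 16 groups across the 64 libraries, leaving 48 residual degrees of freedom, and trend and robust settings, and Benjamini-Hochberg adjustment over 16140 genes. The median residual SD was 0.328, and depth ran from 5369849 to 11665883 reads. Low genes' fold changes are understated on this scale. The fit was checked on simulated data. Other scalings were the deposited one, median-of-ratios and upper-quartile. Python 3.11.15, numpy 2.4.6, pandas 2.3.3 and matplotlib 3.10.9 were used for tables and figures.

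The members and lists were chosen with earlier results of these data known. In each comparison the called members were named by size of change, up to 12 higher and 12 lower, with values per library for the largest called change in each role group; any other member given per library was chosen after its values were seen. Up to 6 other pathway genes with the largest called changes were named. Leaving out Mpp6 and adding the E-box motif were chosen after seeing the data. Promoter sequences are from RefSeq on GRCm38.p6 (39 of 48 members printed or searched), overlaps from GENCODE on GRCm38. Samples were grouped by their labels.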

Additional observations from a re-analysis of the deposited data

Results flagged for a closer look

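The check covered the 18 members with the largest called change in a comparison or role group, not all 49 rows. In 18 of their 288 groups of 4 libraries, 1 library lay far from the other 3 by Dixon's criterion at its 95% critical value, where chance gives about 1 in 20. Btg2 at 1 h had a high library in 3 genotypes, at 1671 normalised counts in DKO cells (others 722 to 809), 1662 in KO cells (933 to 992) and 1403 in WT cells (804 to 895). Btg1 had 1 high library in WT cells at 0 h, at 923 (535 to 587), and Tob1 a low one in WT cells at 4 h, at 42.1 (57.4 to 59.7).

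Other high libraries were Cnot7 in KO cells at 0 h at 411 (337 to 346), Xrn2 in WT cells at 4 h at 1673 (1369 to 1404), Lsm2 in WT cells at 2 h at 398 (297 to 308), Smg5 in KO cells at 4 h at 701 (626 to 634) and Exosc3 in KO cells at 1 h at 240 (196 to 197). Low libraries were Xrn1 at 1 h at 498 in DKO cells (605 to 621) and 490 in WT cells (533 to 541), and Lsm2 at 1 h at 153 in KO cells (222 to 234) and 211 in WT cells (286 to 301). Further low ones were Edc3 in KO cells at 4 h at 369 (413 to 420), Upf1 in DKO cells at 1 h at 619 (695 to 710), Smg5 in DKO cells at 4 h at 539 (625 to 629) and Ttc37 in WT cells at 4 h at 664 (724 to 729).

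The change from 0 to 4 h differed from that of WT cells in 6 tests of the difference itself (limma, called at an adjusted p under 0.05). For Cnot6l the difference was 0.78 in TKO cells and 0.84 in KO cells, and for Parn 0.46 in KO cells. For Xrn2 it was 0.42 in TKO cells, 0.54 in DKO cells and 0.51 in KO cells. None of these calls held under all 4 scalings.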

How the results depend on the processing

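No paired analysis was possible because the lists of 4 values carry no replicate numbers; deviations of libraries at the same list place had a mean correlation of 0.0187 over 480 pairs (lowest -0.496), beside -0.00195 over 1440 pairs at other places. The planned edgeR test was not run, because the deposited values are scaled; limma voom on the recovered reads, chosen after seeing the data, took its place and with the pseudocount of 4 moved no count by over 1.5 times. The counts depend on the scaling between libraries. Members higher in WT cells at 1 h numbered 18, and 11 with upper-quartile scaling and 11 with only the groups compared; those lower numbered 2, and 0 with deposited and 6 with upper-quartile scaling. Those lower in WT cells at 2 h numbered 6, and 10 with upper-quartile scaling.

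With the deposited scaling the members called were 19 and 6 in TKO cells at 0 and 4 h, 21, 0 and 1 in DKO cells at 0, 2 and 4 h, and 12 and 1 in KO cells at 0 and 4 h. With median-of-ratios scaling they were 6 and 5 in TKO cells at 0 and 4 h, 3, 2, 0 and 1 in DKO cells at 0, 1, 2 and 4 h, and 1 in KO cells at 4 h. With upper-quartile scaling they were 5, 14 and 7 in TKO cells at 0, 2 and 4 h, 2 and 0 in DKO cells at 0 and 2 h, and 2 in KO cells at 4 h. With no filter they were 9 and 25 in TKO cells at 1 and 4 h and 29 in KO cells at 4 h. Fits restricted to the groups compared gave 5, 3, 5 and 8 in TKO cells at 0, 1, 2 and 4 h, 0, 0 and 0 in DKO cells at 0, 1 and 2 h, and 1 in KO cells at 4 h. For TKO against DKO cells the deposited, median-of-ratios and upper-quartile scalings gave 2, 2 and 2 at 0 h and 2, 0 and 2 at 4 h, and only the groups compared gave 0 and 2. For TKO against KO cells at 0 h, median-of-ratios gave 3, and upper-quartile, no filter and only the groups compared gave 2 each; no filter gave 0 at 4 h. For the difference in change, the deposited scaling gave 6 in TKO and 7 in DKO cells, median-of-ratios 1 in TKO and 0 in KO cells, upper-quartile 1, 2 and 0 in TKO, DKO and KO cells, and only the groups compared 1, 0 and 0. Non-additivity at 0 h gave 11 with the deposited scaling. The cause was not tested beyond the settings' own construction. Shares of all genes under each single alternative are not given here. These counts therefore describe the settings and are not a result about the decay genes.

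Leaving out 1 library at a time gave 15 to 19 members higher and 1 to 3 lower in WT cells at 1 h, 25 to 29 and 4 to 7 at 2 h, and 18 to 21 and 8 to 11 at 4 h. It gave 6 to 13, 4 to 10, 4 to 8 and 11 to 15 in TKO cells at 0, 1, 2 and 4 h, 1 to 7, 0 to 1, 0 to 2 and 0 to 5 in DKO cells, and 0 to 0 at 0, 1 and 2 h and 5 to 15 at 4 h in KO cells. TKO against DKO gave 0 to 6 at 0 h and 0 to 1 at 4 h, and TKO against KO 2 to 6 and 0 to 1. The difference in change gave 0 to 2, 0 to 1 and 0 to 7 in TKO, DKO and KO cells, and non-additivity 0 to 1 at 0 h and 0 to 0 at 4 h. The libraries behind the larger moves were TKO 0 h library 1 and WT 0 h library 2 (6 each in TKO cells at 0 h), TKO 1 h library 2 (4), TKO 2 h library 1 (4), DKO 4 h library 3 (0), KO 4 h library 1 (5) with WT 4 h libraries 1 and 2 (7 each), and TKO 0 h library 2 (6 against DKO cells). WT 0 h library 4 gave 7 in DKO cells at 0 h and 7 for the KO difference in change. TKO 1 h libraries 1, 3 and 4 gave 7, 9 and 8 and WT 1 h libraries 2, 3 and 4 gave 8, 8 and 7 in TKO cells at 1 h. DKO 4 h libraries 1 and 4 and WT 4 h library 1 gave 1, 5 and 1 in DKO cells at 4 h. KO 0 h libraries 1 and 3 and TKO 0 h library 1 gave 3, 3 and 2 for TKO against KO cells at 0 h. Where 1 member was called, in DKO cells at 1 and 2 h, for TKO against DKO or KO cells at 4 h and for the DKO difference in change, at least 2 different libraries each took the count to 0 when left out.

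Of 163 calls of single members, 14 alternative values changed sign. In KO cells at 4 h with deposited and upper-quartile scaling these were Cnot2 at -0.0065 and -0.0191, Dcp1a at -0.0612 and -0.0737, Edc3 at -0.0197 and -0.0323 and Patl1 at -0.0159 and -0.0285. In TKO cells they were Parn at 1 h at -0.0094 with the deposited scaling, and Patl1 at 4 h at -0.0525, -0.0875 and -0.0068 with the deposited and upper-quartile scalings and only the groups compared. For KO minus WT change they were Parn at -0.0798 and Xrn2 at -0.0268 with the deposited scaling. Of the 163 calls, 53 were lost with the deposited, 50 with the median-of-ratios and 65 with the upper-quartile scaling, 71 with only the groups compared, 21 with no filter and 6 with limma voom, and none with a pseudocount of 4. Depth limits the low members most, such as the second Tob2 row, Exosc4 and Tob1.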

Other observations

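Of 41 RNA-binding proteins and adaptors that bring decay enzymes to mRNAs, the numbers higher and lower in TKO cells than in WT cells were 21 and 1 before restimulation, 8 and 6 after 1 h, 16 and 3 after 2 h and 19 and 1 after 4 h. Of all genes tested, 37.5%, 31.6%, 36.7% and 43.9% were called in either direction. Under all 4 scalings the list's numbers were 11 and 0, 4 and 6, 11 and 3, and 4 and 1. The list's median log2 differences were 0.36, 0.12, 0.16 and 0.25, beside 0.07, 0.0041, 0.03 and 0.20 for all genes tested. The list was made with earlier results of these data known, and holds the targeted genes. Zc3h12d, which belongs to the Zc3h12a family, was higher in TKO cells by 2.18 ± 0.28 at 0 h and 1.33 ± 0.28 at 4 h, and in DKO cells by 1.62 ± 0.28 at 0 h (limma, adjusted p = 1.8e-08, 0.000146 and 5.04e-05). Zc3h12c, another relative, was higher in TKO cells by 3.24 ± 0.46 at 1 h, and Paip2, which restrains poly(A)-binding protein, by 0.67 ± 0.16 at 0 h and 1.20 ± 0.16 at 4 h. The Argonaute Ago1 was higher by 0.85 ± 0.12 at 0 h.

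Of 42 further subunits and enzymes, 9 were higher and 0 lower in TKO cells before restimulation, 2 and 6 after 1 h, 7 and 5 after 2 h and 11 and 0 after 4 h, with median log2 differences of 0.15, -0.02, 0.03 and 0.17, beside the same shares of all genes. The numbers under all 4 scalings were 5 and 0, 1 and 6, 4 and 5, and 3 and 0. Mphosph6, a cofactor of the nuclear exosome, was higher at all 4 times, by 1.35 ± 0.21, 1.91 ± 0.21, 1.25 ± 0.21 and 1.42 ± 0.21. The uridylyltransferase Zcchc6 was lower in TKO cells at 1 h, with a log2 difference of -0.505 ± 0.14 (limma, adjusted p = 0.00411).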
